A study of Mus musculus with 4 samples.

Results

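The integrin and laminin subunit genes are the genes for the receptors by which cells hold their extracellular matrix and for the chains of the laminin trimers in that matrix. They were chosen by gene symbol alone, as all integrin alpha genes, the integrin beta genes *Itgb1* to *Itgb8* and the laminin alpha, beta and gamma genes. Of 19938 genes with a value, 36 belong here, namely 18 integrin alpha, 8 integrin beta and 10 laminin genes. The question was how these genes differ between embryonic lungs without and with *Hmga2*, which codes for a chromatin-associated high-mobility-group protein. Total RNA from whole lungs at embryonic day 18.5 was measured on Affymetrix arrays, with 2 biological replicates of *Hmga2*-/- embryos (KO) and 2 of *Hmga2*+/+ embryos (WT), 1 array per sample, all labelled C57BL/6. The mutant line came as heterozygous mice of a Jackson Laboratories stock. What its allele removes, the number of embryos behind an array and whether arrays of equal number share a litter are not given in the sources used here, and both WT titles carry the same sample name beside their own replicate number. The p values below concern these 4 arrays. They set the difference between the groups against the spread within the groups, which is shared over genes. Values are log2 signals, so that a difference of 1 is a doubling, and every difference is KO minus WT.

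Integrins are pairs of an alpha and a beta chain that span the cell membrane. The combination sets the ligand, and the short tails inside the cell link it to actin through talin and kindlin. Laminins are crosses built of an alpha, a beta and a gamma chain, and they form with type IV collagen the basement membrane under epithelium and around vessels and muscle. In the lung, integrins and laminins carry the branching epithelium, the capillaries that come to lie against it and the leukocytes that move through it.

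The RefSeq tables hold the sequence before the start of 23 of the 36 genes, in 26 windows, as some genes have several starts. They hold none for *Itga7*, *Itgb2* or *Itgal*, so these were not searched. *Itgb6* and *Itgb8* are shown because both beta chains pair with the product of *Itgav* and both receptors can release active TGF-beta. Their mean signals differed in opposite directions, though the difference of *Itgb8* did not pass the test below. The windows are the 250 bases before the annotated start, written 5′ to 3′ on the gene's strand, on build GRCm38.p6. The search was for AATT, a short run of A and T of the kind that the AT-hooks of HMGA proteins bind, which reads the same on both strands and was searched with overlaps allowed. Capitals mark it. The *Itgb6* windows lie on the minus strand at chr2:60722604-60722853 and chr2:60673694-60673943, and the *Itgb8* window on the minus strand at chr12:119238277-119238526.
Itgb6, upstream start: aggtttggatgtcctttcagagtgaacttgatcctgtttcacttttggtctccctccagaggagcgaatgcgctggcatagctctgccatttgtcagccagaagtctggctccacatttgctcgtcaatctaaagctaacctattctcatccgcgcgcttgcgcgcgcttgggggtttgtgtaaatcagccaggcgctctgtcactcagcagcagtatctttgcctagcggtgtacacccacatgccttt
Itgb6, downstream start: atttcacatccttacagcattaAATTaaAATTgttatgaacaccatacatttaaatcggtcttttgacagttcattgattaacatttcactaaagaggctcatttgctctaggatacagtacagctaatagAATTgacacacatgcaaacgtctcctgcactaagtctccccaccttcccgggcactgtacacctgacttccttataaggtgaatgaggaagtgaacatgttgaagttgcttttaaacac
Itgb8: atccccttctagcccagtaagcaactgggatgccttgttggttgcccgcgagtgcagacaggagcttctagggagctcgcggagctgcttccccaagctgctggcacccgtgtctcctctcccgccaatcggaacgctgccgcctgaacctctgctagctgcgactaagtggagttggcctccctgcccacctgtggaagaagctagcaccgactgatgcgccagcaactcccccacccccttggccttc

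The window at the downstream start of *Itgb6* holds AATT 3 times, the window at its upstream start 0 times and that of *Itgb8* 0 times. AATT stands in 11 of the 26 integrin and laminin windows (42.3%) and in 47.1% of all 32851 windows of that length. These are matches of letters, and the arrays do not tell which start was used.

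Whole-array values set the limits of what follows. The *Hmga2* probe set itself had log2 signals of 9.65 and 9.39 in the KO arrays and of 9.35 and 9.59 in the WT arrays, so it did not separate the genotypes. No source used here places it inside or outside the deletion, so it is no check of the labels, by which the arrays are named throughout. Over all probe sets r was 0.997 between the KO arrays and 0.985 between the WT arrays. WT replicate 1 stood farthest off, with r = 0.976 to each KO array, where WT replicate 2 had 0.994 and 0.992. The lung markers *Nkx2-1*, *Sftpc*, *Sftpb* and *Foxf1* were bright on all arrays, with log2 signals from 11.3 to 14.1. The RNA came from whole lungs, so that fewer cells of a type and less RNA per cell cannot be told apart.

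Integrin and laminin genes were mostly lower in the KO lungs. Of the 36, 30 had a lower and 6 a higher mean in the KO arrays, and the median log2 difference was -0.25, against -0.051 over all 19938 genes, of which 58.8% had a lower mean. In limma, at a Benjamini-Hochberg adjusted p under 0.05 among all genes, *Itga7* and *Itgb6* fell and 0 genes rose. That is 5.56% of these genes lower, where 0.702% of all genes were called lower (140) and 0.0802% higher (16). With cyclic loess scaling the calls over all genes were 265 lower and 70 higher, and 3 of these genes, *Itgb2* added, fell. At an unadjusted p under 0.05, 10 were lower (27.8%) and 1 was higher, where 8.58% of all genes were lower and 5.88% higher. In 22 of the 36 (61.1%) both KO arrays lay below both WT arrays, as in 31.8% of all genes. Only *Itgb8* had both KO arrays above both WT arrays (2.78%), as in 17.6% of all genes. Past a 1.2-fold difference, 17 were lower (47.2%) and 1 was higher, where 17.1% of all genes were lower and 13.4% higher. Members such as *Itgb2* and *Itgal* share a heterodimer and cell type, so the 36 are not independent of each other. With 2 arrays against 2, an exact two-sided permutation test of a single gene cannot go below p = 0.333, so that calls rest on limma's spread shared over genes.

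**Figure D1:**
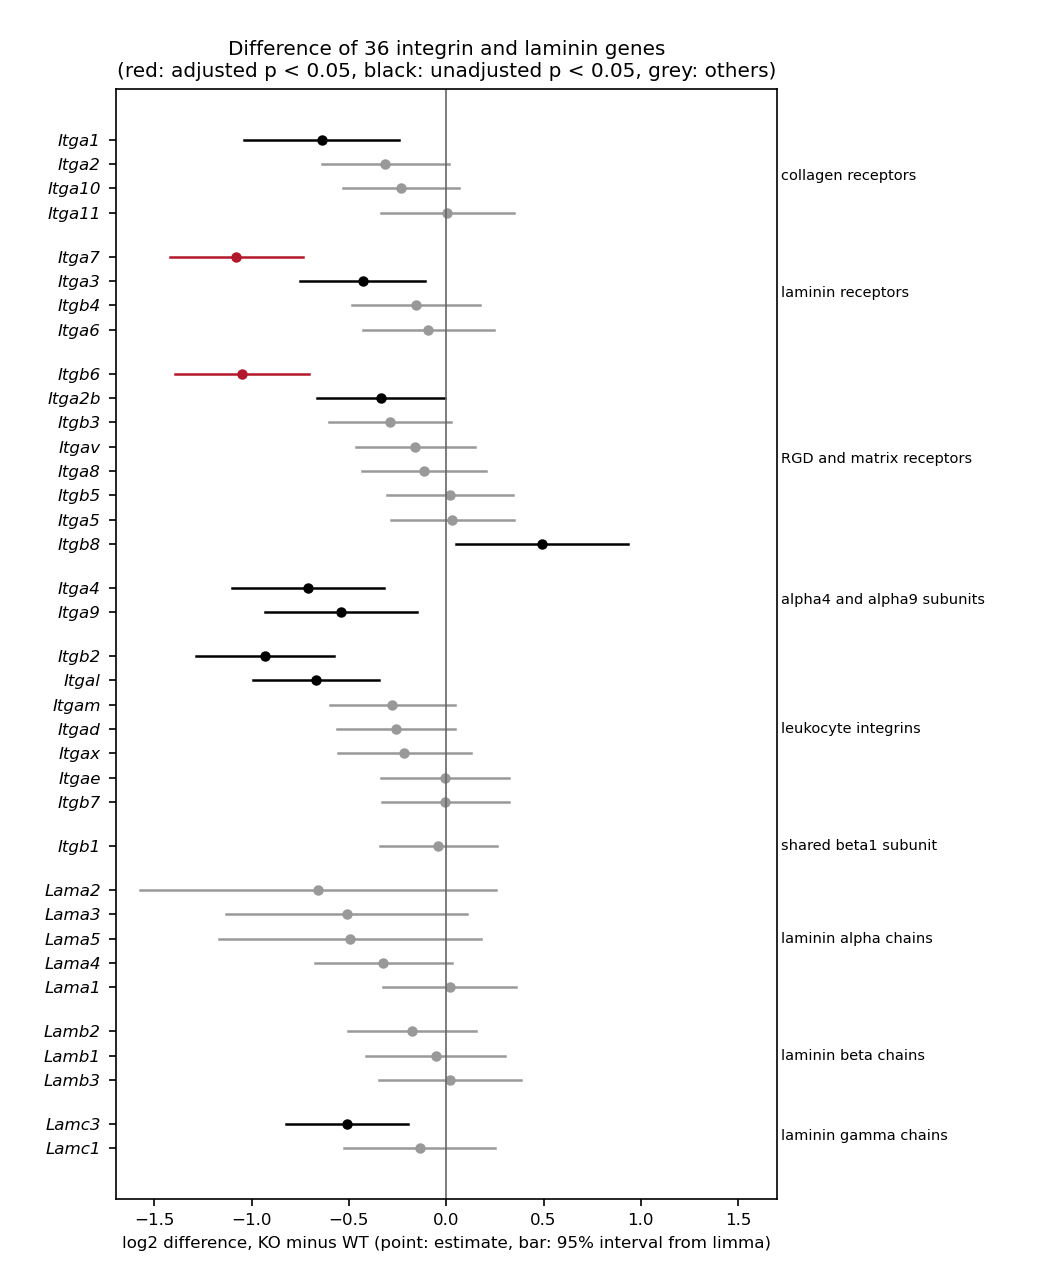
Log2 difference of each of the 36 genes (x axis, KO minus WT), ordered by role. Points are limma's estimates from 2 KO and 2 WT arrays, bars are 95% intervals, red marks an adjusted p under 0.05 and black an unadjusted p under 0.05. Most points lie left of 0, *Itga7* (-1.08) and *Itgb6* (-1.05) farthest, and *Itgb8* (0.49) lies alone on the right.

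Among the receptors for laminin, *Itga7* fell and 3 others did not pass. *Itga7*, the alpha chain of a laminin receptor best known from muscle, had log2 signals of 8.27 and 8.15 in the KO arrays and of 9.40 and 9.18 in the WT arrays. Both KO arrays lay far below either WT array, beyond the gap within each group. The log2 difference was -1.08 (standard error 0.14, adjusted p = 0.0340 from limma), a signal 0.473 times that of WT. Of the smooth muscle markers, 5 of 5 had a higher mean in the KO arrays, with a median log2 difference of 0.16 (0.073 with cyclic loess, 0.29 without WT replicate 2, 0.070 without WT replicate 1). In 3 of them the groups overlapped, and 0 had an unadjusted p under 0.05. Their part in the difference of *Itga7* was not tested. *Itga3*, the alpha chain of the main laminin receptor of lung epithelium, had 10.12 and 10.20 in the KO arrays and 10.67 and 10.51 in the WT arrays. Its groups did not overlap, and the log2 difference of -0.43 (standard error 0.13) did not pass (adjusted p = 0.219 from limma). *Itga6* and *Itgb4* together form the receptor of hemidesmosomes, the rivets of epithelium to its basement membrane. *Itga6* had 11.81 and 11.73 in the KO arrays and 11.75 and 11.97 in the WT arrays, and *Itgb4* had 8.74 and 8.56 in the KO arrays and 8.86 and 8.75 in the WT arrays. The *Itga6* groups overlap and the *Itgb4* groups are barely apart. Their log2 differences were -0.092 and -0.16.

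Among receptors that bind the arginine-glycine-aspartate motif of matrix proteins, *Itgb6* fell, and *Itgb8* had a higher mean but did not pass. Receptors with either of these beta chains can activate TGF-beta. *Itgb6*, an epithelial beta chain that pairs with the *Itgav* product alone, had log2 signals of 9.76 and 9.52 in the KO arrays and of 10.74 and 10.64 in the WT arrays. Both KO arrays lay clearly below both WT arrays, and the signal was 0.483 times that of WT, -1.05 on the log2 scale (standard error 0.14, adjusted p = 0.0387 from limma). *Itgb8*, which also pairs with the *Itgav* product alone, had 7.96 and 7.65 in the KO arrays and 7.50 and 7.12 in the WT arrays. Its groups were apart by less than the gap within either, and the difference of 0.49 (standard error 0.18) did not pass (adjusted p = 0.301 from limma). *Itgb8* belongs to the dimmest 40 percent of genes, where array signals are compressed. *Itgav* itself had 11.03 and 10.94 in the KO arrays and 11.18 and 11.11 in the WT arrays, a log2 difference of -0.16 (95% interval from -0.47 to 0.15). Its other beta partners differed less than *Itgb6*. *Itgb3* had 8.35 and 8.27 in the KO arrays and 8.54 and 8.66 in the WT arrays, *Itgb5* 11.23 and 11.12 in the KO arrays and 11.08 and 11.22 in the WT arrays, and *Itgb1* 11.86 and 11.92 in the KO arrays and 11.96 and 11.90 in the WT arrays. *Itgb3* lay lower in the KO arrays without overlap (-0.29, adjusted p = 0.378 from limma), and the groups of *Itgb5* and *Itgb1* overlapped.

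*Itgb1* codes for the beta chain that most matrix-binding alpha chains share, and its log2 difference was -0.040 with a 95% interval from -0.34 to 0.26. The fibronectin receptor chain *Itga5* had 10.63 and 10.61 in the KO arrays and 10.51 and 10.66 in the WT arrays. *Itga8*, a nephronectin and fibronectin receptor chain of mesenchyme, had 11.34 and 11.25 in the KO arrays and 11.33 and 11.48 in the WT arrays. Both genes had overlapping groups, with log2 differences of 0.031 and -0.11. *Itga2b*, the platelet chain that pairs with the *Itgb3* product to bind fibrinogen, had 8.07 and 7.88 in the KO arrays and 8.27 and 8.36 in the WT arrays. The difference was -0.34 (unadjusted p = 0.0469, adjusted p = 0.339 from limma). The platelet markers measured, 5 of 8 listed, all had a lower mean in the KO arrays, with a median log2 difference of -0.18 (-0.49 without WT replicate 1). *Pf4* differed by only -0.009, and its 8.33 in WT replicate 1 lay below its 8.93 and 8.68 in the KO arrays. The log2 summed signal of these markers was 10.88 and 10.70 in the KO arrays, 10.88 in WT replicate 1 and 11.33 in WT replicate 2. Their part in the difference of *Itga2b* and *Itgb3* was not tested.

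**Figure D2:**
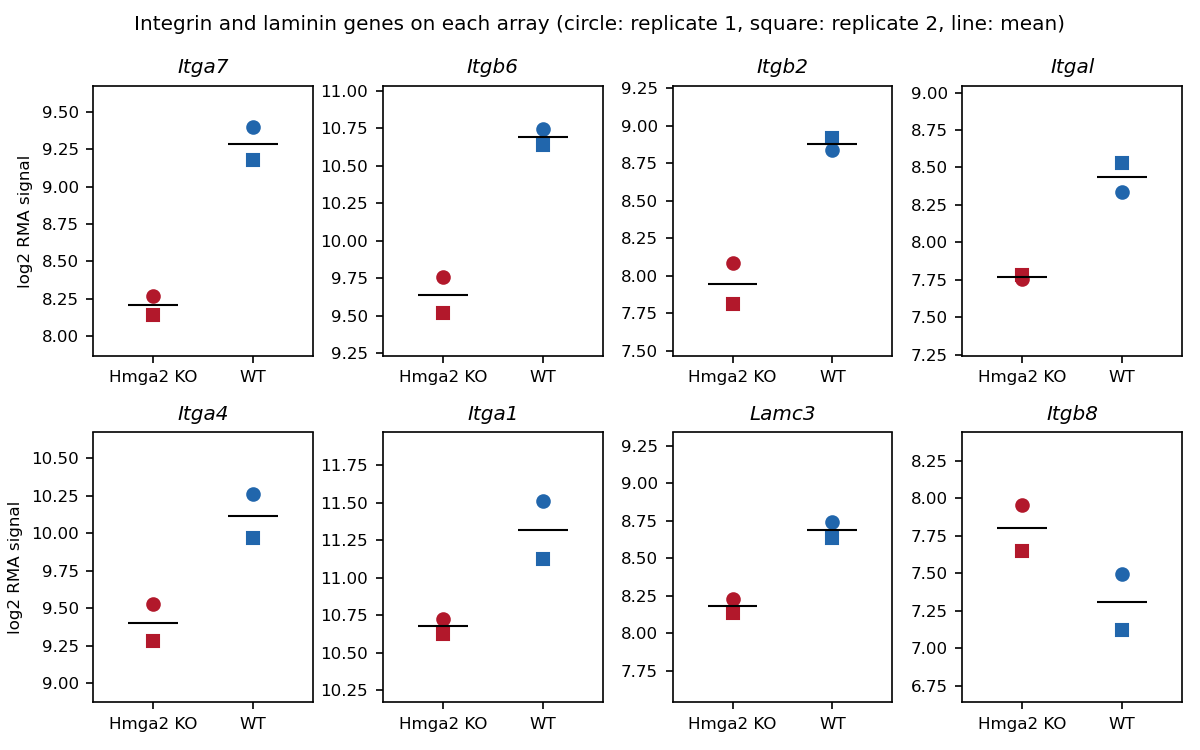
Log2 RMA signal (y axis, each panel spanning the same range) of 8 integrin and laminin genes on each array, KO left and WT right, with circles for replicate 1, squares for replicate 2 and lines for group means. The KO arrays lie below both WT arrays for the first 7 genes and above them for *Itgb8*.

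The collagen receptor chains split by gene. *Itga1*, a collagen IV receptor chain of mesenchyme and vessels, had log2 signals of 10.72 and 10.63 in the KO arrays and of 11.51 and 11.12 in the WT arrays. The groups did not overlap, and the difference of -0.64 (standard error 0.17) had an unadjusted p of 0.00729 (adjusted p = 0.162 from limma). *Itga2* had 10.76 and 10.65 in the KO arrays and 11.10 and 10.93 in the WT arrays (-0.31, adjusted p = 0.363). *Itga10*, known from cartilage, had 7.17 and 7.14 in the KO arrays and 7.41 and 7.38 in the WT arrays (-0.23, adjusted p = 0.431). *Itga11*, the fibrillar collagen receptor chain of fibroblasts, did not follow, with 7.50 and 7.31 in the KO arrays and 7.32 and 7.48 in the WT arrays and a difference of 0.006. For *Itga2* and *Itga10* the KO arrays also lay below both WT arrays, as in 31.8% of all genes, and for *Itga11* the groups overlapped. *Itga10* and *Itga11* were dim, at percentiles 35.9 and 37.7 of mean signal, where array signals are compressed.

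The alpha chains of the *Itga4* and *Itga9* branch, which bind VCAM1, fibronectin and tenascin, were both lower without overlap but did not pass. Of all genes, 31.8% likewise had both KO arrays below both WT arrays. *Itga4*, found on leukocytes and other cells, had log2 signals of 9.53 and 9.28 in the KO arrays and of 10.26 and 9.97 in the WT arrays (-0.71, standard error 0.16, adjusted p = 0.127 from limma). *Itga9*, known from lymphatic vessels and smooth muscle, had 10.70 and 10.81 in the KO arrays and 11.47 and 11.11 in the WT arrays (-0.54, standard error 0.16, adjusted p = 0.211 from limma). Their unadjusted p values were 0.00400 for *Itga4* and 0.0145 for *Itga9*.

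Leukocyte integrins were lower in the KO arrays where they belong to the beta2 family. *Itgb2*, the beta chain common to that family, had log2 signals of 8.09 and 7.81 in the KO arrays and of 8.84 and 8.92 in the WT arrays. The KO arrays lay well below both WT arrays, and the difference of -0.93 (standard error 0.15) just missed the threshold (adjusted p = 0.0577 from limma). *Itgal*, its alpha partner on lymphocytes and other leukocytes, had 7.75 and 7.78 in the KO arrays and 8.34 and 8.53 in the WT arrays (-0.67, standard error 0.14, adjusted p = 0.0960 from limma). The partners of myeloid cells differed by less. *Itgam* had 7.07 and 6.89 in the KO arrays and 7.24 and 7.28 in the WT arrays, *Itgax* 5.91 and 5.79 in the KO arrays and 6.18 and 5.95 in the WT arrays, and *Itgad* 8.20 and 8.23 in the KO arrays and 8.52 and 8.43 in the WT arrays. All of them lay lower without overlap, by 0.22 to 0.28, and did not pass (adjusted p from 0.401 to 0.506 in limma). The dimmer of 2 probe sets of *Itgad* did not show it, with 6.52 and 6.50 in the KO arrays and 6.48 and 6.54 in the WT arrays. Of all genes, 31.8% also lay lower in the KO arrays without overlap. *Itgam* and *Itgax* were dim, at percentiles 33.6 and 17.3 of mean signal, where array signals are compressed. With cyclic loess the differences were -0.19 for *Itgam*, -0.072 for *Itgax* and -0.26 for *Itgad*. *Itgae* and *Itgb7*, which pair with each other on lymphocytes within epithelium, had overlapping groups and differences of -0.008 and -0.004. *Itgae* had 6.59 and 6.48 in the KO arrays and 6.45 and 6.63 in the WT arrays, and *Itgb7* had 6.91 and 6.97 in the KO arrays and 6.85 and 7.04 in the WT arrays.

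Markers of leukocytes also had lower means in the KO arrays, with *Lyz2* alone passing the test. For the 5 general leukocyte markers the median log2 difference was -0.42 (-0.18 without WT replicate 2, -0.73 without WT replicate 1), and their log2 summed signal was 12.1 to 12.2 in the KO arrays and 12.4 to 12.7 in the WT arrays. *Cd53* differed by -0.89 (adjusted p = 0.0859 from limma) and *Ptprc* by -0.91 (adjusted p = 0.122 from limma). Of 8 macrophage markers listed, the 7 measured were lower (median -0.38) with a summed signal of 12.2 to 12.3 in the KO arrays and 13.5 to 13.6 in the WT arrays. That gap follows *Lyz2*, which alveolar type II cells also make. *Lyz2* had 11.40 and 11.32 in the KO arrays and 13.23 and 13.01 in the WT arrays and fell by 1.76 (adjusted p = 0.00803 from limma), and the other 6 differed by -0.46 to -0.22 and did not pass. All 8 neutrophil markers were lower (median -0.28), with a summed signal of 9.56 to 9.67 in the KO arrays and 10.09 to 10.10 in the WT arrays. So were the 9 lymphocyte markers measured (median -0.12, but 0.015 with cyclic loess, -0.18 without WT replicate 2 and -0.056 without WT replicate 1), with sums of 9.37 to 9.39 in the KO arrays and 9.48 to 9.55 in the WT arrays. Over all genes 58.8% had a lower mean. These lymphocyte markers, and the neutrophil markers other than *S100a8*, belong to the dimmest 40 percent of genes, where array signals are compressed. None of these lists has a defining marker at 0, since the arrays carry no zero. The part of leukocyte number in the lower integrin signals was not tested.

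Marker lists of epithelium and vessels differed among themselves. All 7 alveolar type I markers were lower in the KO arrays (median -0.67, summed signal 14.2 in both KO arrays and 14.8 to 14.9 in the WT arrays), and *Aqp5*, a water channel (-2.20, adjusted p = 0.00339), and *Rtkn2* (-2.49, adjusted p = 0.0121) fell. All 7 alveolar type II markers were lower (median -0.69, summed signal 15.4 in both KO arrays and 15.9 in both WT arrays), and the lamellar body gene *Lamp3* (-1.12, adjusted p = 0.0254) and the surfactant gene *Sftpa1* (-1.10, adjusted p = 0.0258) fell. The surfactant gene *Sftpc* differed by only -0.096 (adjusted p = 0.728). Airway markers split, with 3 lower and 3 higher (median -0.12, summed signal 12.9 to 13.0 in the KO arrays and 13.8 to 14.0 in the WT arrays). All 3 lower genes had both KO arrays below both WT arrays, as in 31.8% of all genes, and the club cell secretoglobin *Scgb1a1* fell by 2.69 (adjusted p = 0.00283). Of the 3 higher, *Foxj1* (0.049) had overlapping groups. The others, *Krt5* and *Trp63*, were dim, at percentiles 30.6 and 33.9 of mean signal, where array signals are compressed. *Krt5*, of basal cells, had 7.07 and 6.91 in the KO arrays and 6.84 and 6.87 in the WT arrays (0.14, adjusted p = 0.635). In both *Krt5* and *Trp63* the KO arrays lay just above both WT arrays, as in 17.6% of all genes. Of 8 endothelial markers, 7 had a lower mean and 0 passed (median -0.31, summed signal 14.59 to 14.66 in the KO arrays and 14.92 to 14.99 in the WT arrays). Fibroblast markers had a median of 0.095 (0.017 with cyclic loess, 0.040 without KO replicate 2, 0.050 without WT replicate 2, 0.16 without WT replicate 1), with *Dcn*, the proteoglycan decorin, rising by 1.13 (adjusted p = 0.0455), and proliferation markers a median of 0.76 (1.14 without WT replicate 2), with 5 of 5 measured higher and 0 past the adjusted threshold. Mesothelial markers split, with 3 lower and 2 higher (median -0.049, but 0.076 without WT replicate 2 and -0.13 without WT replicate 1). Of these, *Msln* differed by -1.42 (adjusted p = 0.0303) and passed alone. The erythroid markers measured, 3 of 7 listed, all had a lower mean and 0 passed (median -0.10, but -0.061 with centring and -0.38 without the dimmest 40 percent). The limma p values here are adjusted over all genes. Of the integrins of epithelium and vessels, *Itgb6* passed, and *Itga3*, *Itga6*, *Itgb4* and *Itga1* did not. The part of these cell types in their differences was not tested.

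**Figure D3:**
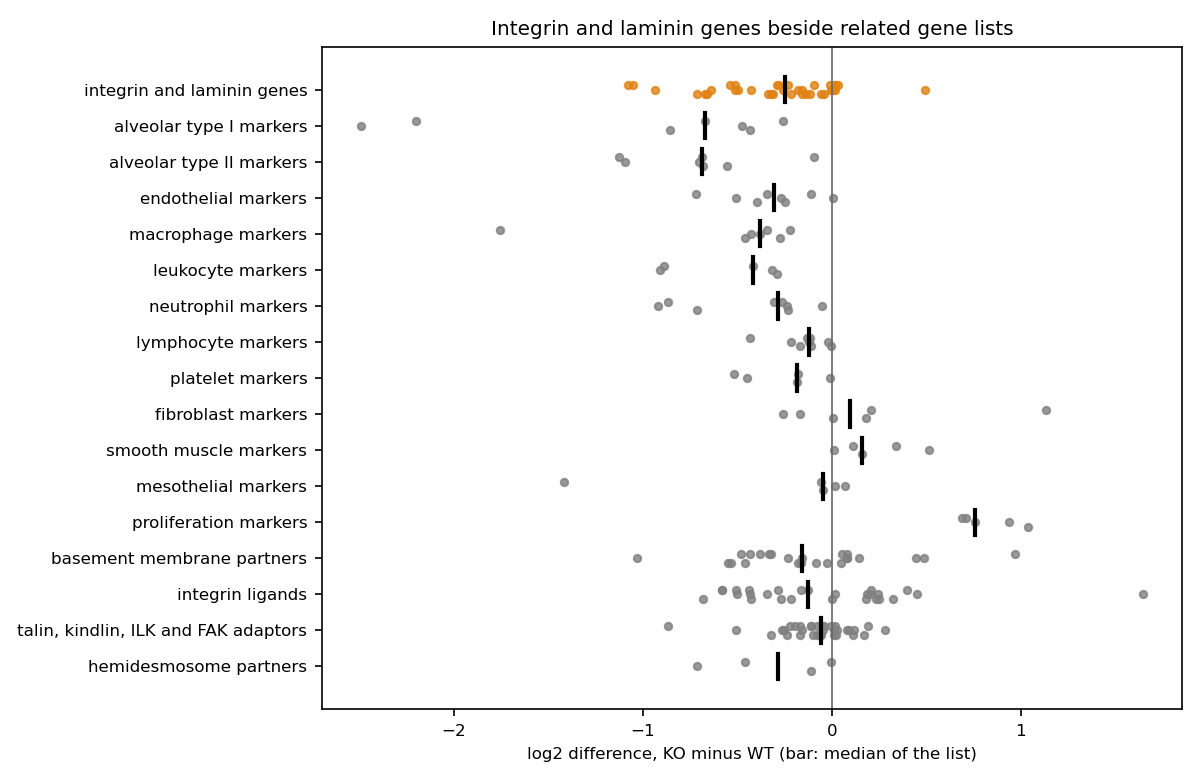
Log2 difference, KO minus WT (x axis), of each measured gene of the integrin and laminin set (orange) and of related lists (grey), with black bars for list medians. The integrin and laminin median is -0.25, those of alveolar type I and II markers are -0.67 and -0.69, and that of proliferation markers is 0.76.

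The lower laminin means rested mainly on WT replicate 1. Of 10, 8 had a lower and 2 a higher mean in the KO arrays (median log2 difference -0.25), 0 passed limma's test over all genes, and 1, *Lamc3*, had an unadjusted p under 0.05. *Lamc3*, the least widespread gamma chain, had 8.23 and 8.13 in the KO arrays and 8.74 and 8.64 in the WT arrays (-0.51, standard error 0.13, adjusted p = 0.157 from limma). Its WT arrays lay close together and above both KO arrays. The alpha chains looked different. *Lama5*, the alpha chain of most laminin in the lung's epithelial basement membrane, had 10.87 and 10.93 in the KO arrays, 11.85 in WT replicate 1 and 10.95 in WT replicate 2. *Lama3*, the alpha chain of the laminin under hemidesmosomes, had 10.65 and 10.66 in the KO arrays, 11.57 in WT replicate 1 and 10.77 in WT replicate 2. *Lama2*, the muscle and mesenchyme alpha chain, had 9.29 and 9.08 in the KO arrays, 10.48 in WT replicate 1 and 9.21 in WT replicate 2. In each of these genes WT replicate 2 sat with the KO arrays and WT replicate 1 stood alone above.

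Their log2 differences were -0.50 for *Lama5*, -0.51 for *Lama3* and -0.66 for *Lama2*, with standard errors from 0.26 to 0.38 and adjusted p from 0.414 to 0.458 in limma. The KO mean minus WT replicate 1 was -0.94 for *Lama5*, -0.92 for *Lama3* and -1.30 for *Lama2*, and minus WT replicate 2 it was -0.048, -0.11 and -0.026 for the same genes. *Lama4*, the alpha chain of vessel walls, had 11.28 and 11.21 in the KO arrays and 11.70 and 11.43 in the WT arrays (-0.32, adjusted p = 0.380 from limma), and *Lama1*, the alpha chain of early embryonic basement membrane, had 7.55 and 7.40 in the KO arrays and 7.56 and 7.35 in the WT arrays. *Lama4* had groups apart and *Lama1* did not.

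The beta chains and the common gamma chain differed little. *Lamb1* had 11.31 and 11.43 in the KO arrays and 11.56 and 11.28 in the WT arrays, *Lamb2* 10.54 and 10.58 in the KO arrays and 10.84 and 10.64 in the WT arrays, and *Lamc1* 12.16 and 12.21 in the KO arrays and 12.50 and 12.13 in the WT arrays. *Lamb3*, the beta chain of the hemidesmosome laminin, had 10.46 and 10.49 in the KO arrays and 10.30 and 10.61 in the WT arrays. Among these, *Lamb2* had groups just apart, and the others overlapped, with differences between -0.18 and 0.018. The gap between the WT arrays had a median of 0.29 over the laminin genes and 0.16 over the integrin genes, against 0.20 over all genes, and between the KO arrays it was 0.064, 0.11 and 0.12. WT replicate 1 was above WT replicate 2 in 9 of 10 laminin genes, *Lamb3* being the exception, and in 14 of 26 integrin genes. Over all genes it was above in 8299 of 19938.

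**Figure D4:**
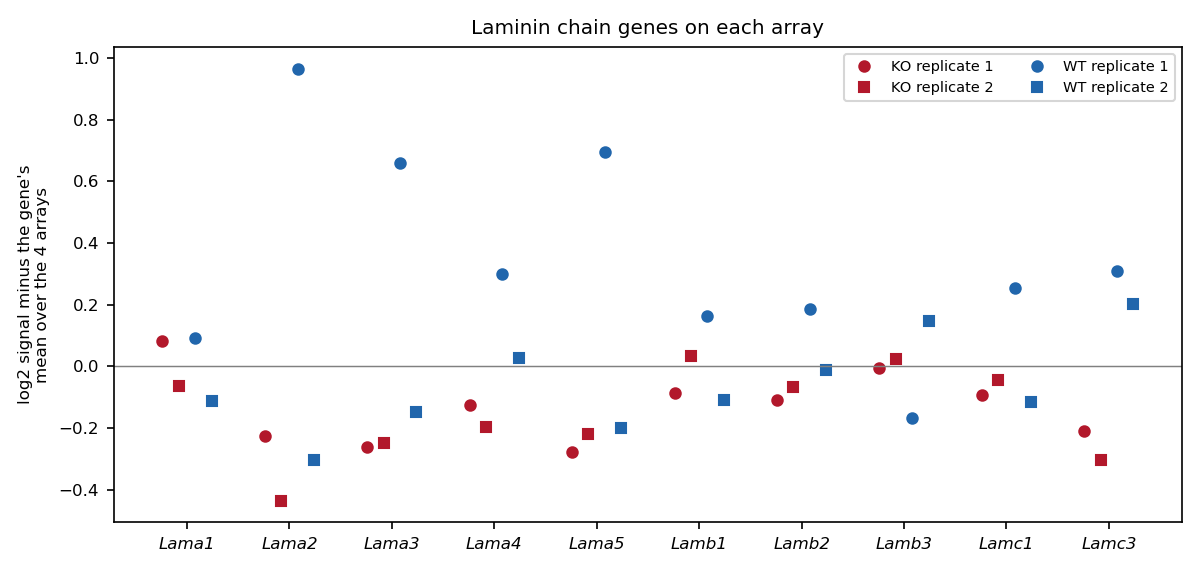
Log2 signal of each laminin gene on each array as its distance from the gene's mean over the 4 arrays (y axis), with KO in red and WT in blue, circles for replicate 1 and squares for replicate 2. WT replicate 1 stands alone at the top for *Lama2*, *Lama3* and *Lama5*, and both WT arrays lie above both KO arrays for *Lamc3*.

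Without WT replicate 1, the median of the laminin genes was -0.063, with 7 of 10 lower, and that of the integrin genes was -0.22, with 25 of 26 lower and *Itgb8* higher. Over all genes the median was then -0.058, with 63.8% lower. Taken against a single WT array, *Itgb6* differed by -1.10 (replicate 1) and -0.999 (replicate 2), and *Itga7* by -1.19 and -0.97. *Itgb2* and *Itgal* differed more against WT replicate 2 (-0.97 and -0.77) than against WT replicate 1 (-0.89 and -0.57). For *Itga1*, *Itga9* and *Itga4* the difference was larger against WT replicate 1 (-0.83, -0.72 and -0.86) than against WT replicate 2 (-0.45, -0.36 and -0.57). The calls of *Itga7* and *Itgb6* were lost when either KO array was left out, where limma called 0 (without KO replicate 2) or 1 (without KO replicate 1) of all genes and their adjusted p ran from 0.525 to 0.931. Their differences in those fits ran from -1.17 to -0.93.

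**Figure D5:**
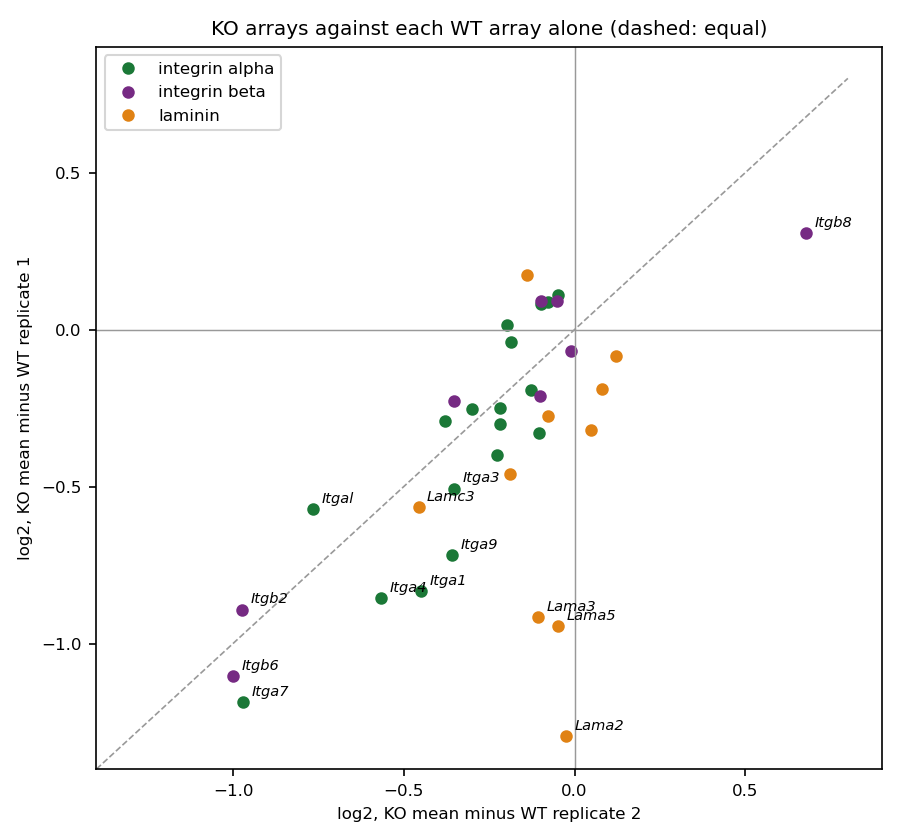
KO mean minus WT replicate 2 (x axis) against KO mean minus WT replicate 1 (y axis), both log2, for the 36 genes, with the dashed line where both are equal. *Itga7*, *Itgb6* and *Itgb2* lie near the line at about -1, and *Lama2*, *Lama3* and *Lama5* lie near 0 on the x axis and between -1.30 and -0.92 on the y axis.

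The genes around integrins and laminins, listed by function, showed no call. Of 24 basement membrane partners, 15 had a lower and 9 a higher mean in the KO arrays (median -0.16, but -0.051 without WT replicate 1 and -0.28 without WT replicate 2), and 0 passed limma's test over all genes. At an unadjusted p under 0.05, 6 were lower and 3 higher, where 8.58% of all genes were lower and 5.88% higher. *Col4a3*, a type IV collagen chain of alveolar basement membrane, had 8.11 and 7.94 in the KO arrays and 9.31 and 8.79 in the WT arrays (-1.03, adjusted p = 0.0859 from limma). *Col4a2*, of the ubiquitous type IV collagen, differed by -0.55 (adjusted p = 0.157). *Col18a1*, the source of endostatin, went the other way, with 10.62 and 10.66 in the KO arrays and 9.51 and 9.82 in the WT arrays (0.97, adjusted p = 0.0573 from limma). *Ntn4*, a netrin that binds laminin, differed by -0.48 (adjusted p = 0.186).

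Integrin ligands went both ways, with 14 of 27 measured lower and 13 higher (median -0.13, but -0.21 with cyclic loess, -0.082 without KO replicate 2 and -0.065 without WT replicate 2), and 0 passing. At an unadjusted p under 0.05, 7 were lower and 2 higher, where 8.58% of all genes were lower and 5.88% higher. *Fn1*, fibronectin, had 12.82 and 12.83 in the KO arrays and 13.74 and 13.27 in the WT arrays (-0.68, adjusted p = 0.168 from limma). *Icam1*, the ligand of the beta2 family, had 10.73 and 10.64 in the KO arrays and 11.20 and 11.33 in the WT arrays (-0.58, adjusted p = 0.124 from limma). *Ibsp*, a sialoprotein of bone, had 8.79 and 8.23 in the KO arrays and 6.22 and 7.50 in the WT arrays (1.65, adjusted p = 0.150 from limma), with a wide gap between the WT arrays. *Col13a1*, a membrane collagen, differed by -0.58 (adjusted p = 0.195).

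Adaptors that tie integrins to actin and kinases differed little. Of 34 measured, 22 had a lower and 12 a higher mean in the KO arrays (median -0.058, but 0.055 without WT replicate 2, -0.15 without WT replicate 1, -0.12 with cyclic loess, -0.015 without KO replicate 2 and -0.098 without KO replicate 1), and 0 passed. At an unadjusted p under 0.05, 2 of the 34 were lower and 0 higher, where 8.58% of all genes were lower and 5.88% higher. The 2 lower adaptors were *Lims2*, a partner of integrin-linked kinase, with 8.43 and 8.47 in the KO arrays and 9.001 and 9.633 in the WT arrays (-0.87, adjusted p = 0.150 from limma), and *Tns1*, tensin, with 12.28 and 12.36 in the KO arrays and 13.00 and 12.65 in the WT arrays (-0.51, adjusted p = 0.224 from limma). *Lpxn*, leupaxin, and *Vcl*, vinculin, differed by -0.32 and -0.22 and did not pass (adjusted p = 0.385 and 0.449). Of 4 hemidesmosome partners, *Plec* (-0.46, adjusted p = 0.317) and *Dst* (-0.72, adjusted p = 0.341) had an unadjusted p under 0.05, and *Col17a1* and *Cd151* differed by -0.003 and -0.11. *Dst* had 8.91 and 8.70 in the KO arrays, 9.99 in WT replicate 1 and 9.06 in WT replicate 2, so WT replicate 1 again stood alone above the other arrays. The p values of these lists are from limma, adjusted over all genes.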

How the data were processed

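The authors deposited log2 signals for 30177 probe sets, computed by RMA (background correction, quantile normalization between arrays, probe summary) with Affymetrix Expression Console, versions not given in the sources used here. Which signals exceeded background is not recorded, and 4 arrays set the precision. The platform annotation gave 1 symbol for 21789 probe sets, several for 1621 and none for 6767. The brightest probe set stood for a gene, giving 19938 genes. The 3 probe sets shared by *Itgam* and *Rpl35* were left out. Genes were fitted with limma 3.58.1 in R 4.3.3 (lmFit, eBayes, two-sided, residual df 2, prior df 4.42), adjusted by Benjamini-Hochberg over all genes, threshold 0.05. The code was tested on simulated data. Intervals are 95% intervals from limma. The members and lists were chosen with earlier results of these data known. Named were all members, *Hmga2*, up to 4 genes of each list by p and any that a count turned on. Results were recomputed with a replicate block, with centred arrays, by cyclic loess, without dim genes (lowest 40 percent), from probe-set means, with limma's trend and robust options, and without each array in turn. Figures used matplotlib 3.10.9 in Python 3.11.15.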

Additional observations from a re-analysis of the deposited data

How the results depend on the processing

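Over the alternatives with all arrays, *Itga7* and *Itgb6* passed in each, and *Itgb2* passed as well with the replicate block (adjusted p = 0.0224), each array centred (0.0459), dim genes (lowest 40 percent) left out (0.0333) and cyclic loess (0.0291), from limma. Same-numbered arrays deviated in opposite directions (r = -0.238), which with 2 arrays a group does not settle whether equal numbers share a litter, and no pairing was assumed. With the replicate block 602 genes were called, 241 higher and 361 lower, and with the numbers crossed, chosen after seeing the data, 512, 207 higher and 305 lower, in place of 156, 16 higher and 140 lower. The block called 3 integrin and laminin genes in place of 2. Cyclic loess called 335 genes (70 higher, 265 lower), leaving out the dimmest 40 percent 301 (74 higher, 227 lower), centring 27 higher and trend with robust 25 higher. Leaving out an array gave 0 to 6292 calls over all genes (0 to 3321 higher, 0 to 2971 lower) and 0 to 14 among integrin and laminin genes, with 0 without either KO array, 8 without WT replicate 1 and 14 when replicate 2 was left out. The array left alone in its group lends no spread of its own. At an unadjusted p under 0.05, 4 of these genes were lower when KO replicate 2 was left out (968 of all 19938 genes in either direction) and 7 when KO replicate 1 was (1057), with 0 higher. When WT replicate 2 was left out 16 were lower (8018), and 11 when WT replicate 1 was (3210), with 1 higher in each.

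The median of all 36 genes was -0.32 without the dimmest 40 percent (28 genes left) and -0.28 to -0.16 when an array was left out. That of the alpha genes was -0.34 without the dimmest and -0.32 to -0.22 with an array left out. That of the beta genes was -0.058 when centred, -0.15 with cyclic loess, -0.22 without the dimmest and -0.14 to -0.067 with an array left out. That of the laminin genes ran from -0.39 to -0.063. Without the dimmest 40 percent the medians were -0.39 for airway and -0.31 for platelet markers and -0.46 for hemidesmosome partners. The airway markers had then lost *Krt5* and *Trp63*. Of the neutrophil markers *S100a8* alone was left, so that their value of -0.87 is that of a single gene. With centring the medians were -0.079 for airway and for lymphocyte markers and -0.018 for adaptors. Several small differences changed sign. With centring these were *Itgae* (0.032), *Itgb1* (0.00036) and *Itgb7* (0.037). With cyclic loess they were *Itga5* (-0.036), *Itgae* (0.12), *Itgb5* (-0.054), *Itgb7* (0.097) and *Lamb3* (-0.047). Leaving out an array, the differences ran from -0.086 to 0.099 for *Itga11*, from -0.048 to 0.11 for *Itga5*, from -0.20 to 0.015 for *Itga6*, from -0.097 to 0.081 for *Itgae*, from -0.052 to 0.091 for *Itgb5*, from -0.097 to 0.090 for *Itgb7*, from -0.085 to 0.12 for *Lama1*, from -0.19 to 0.081 for *Lamb1*, from -0.14 to 0.18 for *Lamb3* and from -0.32 to 0.048 for *Lamc1*. The cause was not tested. Leaving out the dimmest 40 percent gave no value for the lymphocyte markers, *Itgb8* and 7 other genes.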
